A study of Mus musculus with 34 samples.

Results

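The glucocorticoid receptor gene Nr3c1 and 7 genes known as direct targets of the receptor (Fkbp5, Tsc22d3, Sgk1, Mt1, Mt2, Pdk4 and Zbtb16) were followed through adipogenic induction of 3T3-L1 cells, a mouse preadipocyte line. They were chosen by name, with earlier results of these data known, because dexamethasone, a synthetic glucocorticoid, is part of the induction mix. The 8 genes are 8 of the 17510 genes in the RNA table, and each has peaks assigned to it in the chromatin tables: 11 of 10702 H3K4me3 peaks, 120 of 87525 KDM5A peaks and 29 of 14827 KDM5C peaks. The RNA and H3K4me3 libraries (12 each) came from cells transduced for 24 hours, 4 days before induction, with lentivirus carrying either a short hairpin against luciferase (shLuc, the control) or hairpins against Kdm5a, Kdm5b and Kdm5c (shKdm5ABC). KDM5 enzymes remove methyl groups from lysine 4 of histone H3. Each of these 6 groups has 2 libraries, taken at day 0 before induction, at 4 hours or at day 2. All induced cells, shLuc and shKdm5ABC alike, received dexamethasone, insulin, the phosphodiesterase inhibitor IBMX and serum, so a response to dexamethasone cannot be told apart from a response to the other components. KDM5A was mapped at the same 3 times (2 libraries each) and KDM5C at day 2 (2 libraries), with 1 input library used as background; the labels name no transduction for these cells.

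The glucocorticoid receptor is a nuclear receptor that waits in the cytoplasm in a complex with heat shock proteins and immunophilins. Hormone binding releases it into the nucleus, where receptor dimers bind glucocorticoid response elements, palindromes of AGAACA and TGTTCT with a short spacer, and raise or lower transcription nearby. FKBP5 is an immunophilin of the receptor complex that lowers hormone affinity, and TSC22D3 (GILZ) is an anti-inflammatory leucine zipper protein. SGK1 is a kinase of the AGC family that acts on ion transport and FOXO factors, and the metallothioneins MT1 and MT2 bind zinc and copper and are also induced by metals through the factor MTF1. PDK4 inhibits pyruvate dehydrogenase and so spares glucose, and ZBTB16 (PLZF) is a zinc finger transcription factor. In preadipocytes glucocorticoid acts early in differentiation, together with cyclic AMP, which IBMX raises.

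Promoter sequences were available from RefSeq (GRCm38.p6, 250 bases before to 50 after each annotated start) for 6 of the 8 genes in 13 windows, 6 of them for Sgk1 and 3 for Tsc22d3; Nr3c1 and Zbtb16 had no entry. The 4 stretches below are shown because they hold letters of elements known for steroid or metal response. Each is the 250 bases before a start, 5′ to 3′ on the gene's strand. Capitals mark AGAACA or TGTTCT in Sgk1 (chr10:21993640-21993889, plus strand) and Tsc22d3 (chrX:140600523-140600772, minus strand). In Mt1 (chr8:94178839-94179088, plus strand) and Mt2 (chr8:94172368-94172617, plus strand) they mark TGCNCNC on either strand. This is a looser form of the metal response element core TGCRCNC, where R is A or G.
Sgk1: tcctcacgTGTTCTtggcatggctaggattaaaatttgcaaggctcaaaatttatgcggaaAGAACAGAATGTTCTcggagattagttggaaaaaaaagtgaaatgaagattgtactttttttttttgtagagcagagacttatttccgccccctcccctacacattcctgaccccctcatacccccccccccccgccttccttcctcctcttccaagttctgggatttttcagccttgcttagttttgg
Tsc22d3: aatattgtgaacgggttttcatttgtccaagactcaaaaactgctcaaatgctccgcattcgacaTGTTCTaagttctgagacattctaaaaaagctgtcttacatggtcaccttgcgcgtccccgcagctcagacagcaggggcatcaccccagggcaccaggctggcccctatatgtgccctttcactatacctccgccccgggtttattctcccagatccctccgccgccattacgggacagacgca
Mt1: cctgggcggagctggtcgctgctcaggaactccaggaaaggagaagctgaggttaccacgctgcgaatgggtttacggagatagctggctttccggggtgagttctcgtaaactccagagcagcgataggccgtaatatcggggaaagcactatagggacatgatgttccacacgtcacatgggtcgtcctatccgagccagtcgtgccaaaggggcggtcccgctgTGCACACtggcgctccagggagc
Mt2: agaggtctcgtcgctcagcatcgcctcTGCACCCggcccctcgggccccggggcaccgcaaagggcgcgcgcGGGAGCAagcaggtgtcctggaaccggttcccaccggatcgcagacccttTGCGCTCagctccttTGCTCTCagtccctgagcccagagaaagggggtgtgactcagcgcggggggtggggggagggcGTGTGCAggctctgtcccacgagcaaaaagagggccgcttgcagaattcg

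The Sgk1 stretch holds the full palindrome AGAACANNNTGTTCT, starting 189 bases before this start, and a further TGTTCT at 242 bases before it. That palindrome without a mismatch is present in 3 of 32851 promoter windows of the same length (0.00913%), and with up to 2 mismatches in 606 (1.84%). Tsc22d3 has a single TGTTCT at 185 bases before the start shown; AGAACA on either strand is present in 19.0% of all windows. Mt2 has 5 matches to TGCNCNC in the printed bases, at 223, 178, 128, 113 and 50 bases before the start, and Mt1 has 1 at 23 bases before it. Those of Mt2 at 178 and 113 bases carry a T where TGCRCNC has A or G. The looser TGCNCNC is present in 51.0% of all windows. The Mt1 window also holds TGACG on the minus strand, the first bases of a cyclic AMP response element, at 77 bases before the start (20.8% of windows). The full element TGACGTCA, found in 1.79% of windows, is in none of the 13. The Fkbp5, Pdk4, Mt1 and Mt2 windows hold neither AGAACA on either strand nor the palindrome with up to 2 mismatches. The same is true of the Tsc22d3 windows that are not shown. Motifs overlap where an AGAACA lies inside the palindrome, and a match here is a description of letters only.

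RNA was deposited as log2 tags per kilobase of transcript (log2 tags/kb), so levels can be set beside each other between genes. No counts accompany these values and the RNA depth is unknown. The chromatin tables hold tags scaled by library, and the whole reads recovered from their steps sum over the peaks to 5779208 to 10964219 for H3K4me3, 1039219 to 4552253 for KDM5A, and 102764 and 119705 for KDM5C. The hairpins' targets were lower in shKdm5ABC cells at day 0, 4 hours and day 2: by 0.98, 0.78 and 0.90 (log2) for Kdm5a, by 0.72, 0.73 and 0.65 for Kdm5b, and by 1.40, 1.33 and 1.35 for Kdm5c, each past an adjusted p of 0.05 (limma). Fibroblast markers (10 genes) summed to 71443 to 73382 tags/kb in shLuc cells at day 0 and 14671 to 16658 at day 2, while 10 adipocyte markers went from 3260 to 4098 up to 37287 to 47080; 10 of 10 fell and 10 of 10 rose. Of the markers of other cells, the macrophage genes Ptprc, Adgre1 and Itgam were below a log2 value of 0 in every library, as were the endothelial genes Kdr and Tek and the muscle genes Ckm and Myh3. Others of the same lists were above 0 in every library: Cd14 at 3.40 to 7.45 log2 tags/kb, Cd68 at 4.07 to 5.93, Lyz2 at 2.72 to 5.60, Egfl7 at 3.33 to 4.81, Des at 2.57 to 5.55 and Acta1 at 1.15 to 3.11. The summed levels were 39.4 to 269 for 7 macrophage markers, 12.3 to 30.9 for 5 endothelial and 14.0 to 50.3 tags/kb for 4 muscle markers. In bulk RNA fewer cells of a type and less RNA per cell cannot be told apart, and the part of the shift from fibroblast to adipocyte markers in the day 2 values of the receptor targets was not tested.

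In control cells the first 4 hours of induction moved all 8 genes past the test (limma on all 13534 tested transcripts, Benjamini-Hochberg adjusted p under 0.05, where 42.3% of all transcripts passed). The 6 target genes Fkbp5, Tsc22d3, Mt2, Zbtb16, Mt1 and Sgk1 rose, and Nr3c1 and Pdk4 fell. At day 2, 6 of the 8 still differed from day 0 (55.0% of all transcripts did), 3 of them higher and 3 lower. Between 4 hours and day 2, 6 of 8 changed (46.4% of all), 5 falling and 1 rising. Replicates carry experiment numbers 1 and 2 and nothing says whether they were separate cultures, so the p-values measure the spread between these libraries, which may be technical.

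**Figure D1:**
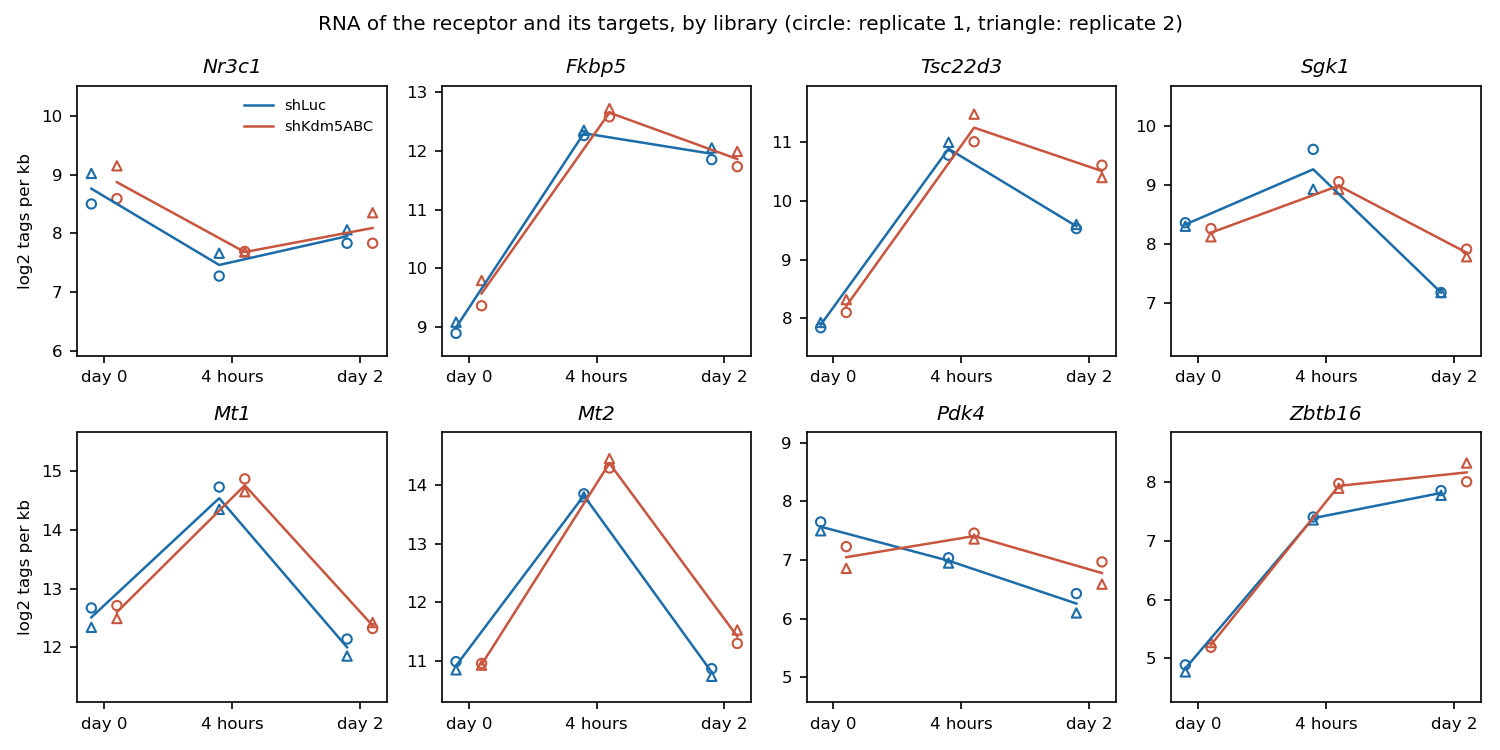
RNA level (log2 tags/kb) of the 8 genes in each of the 12 libraries, by time and hairpin; circles and triangles are replicates 1 and 2 and lines join group means. Fkbp5, Tsc22d3, Mt1, Mt2 and Zbtb16 are higher at 4 hours than at day 0 in every library of both hairpins, and Nr3c1 is lower.

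The receptor transcript itself (Nr3c1, NM_008173) read 8.50 and 9.02 log2 tags/kb in the shLuc libraries at day 0, 7.27 and 7.66 at 4 hours, and 7.83 and 8.06 at day 2. Both day 0 libraries lie above all libraries of the later times. The fall at 4 hours was 1.29 (log2; SE 0.25, 2.45-fold lower, adjusted p = 0.00218), and at day 2 the level was still lower than at day 0 by 0.81 (SE 0.25, adjusted p = 0.0177). The day 2 call was lost without replicate 2 of day 0 (a fall by 0.55, adjusted p = 0.143) or replicate 1 of day 2 (a fall by 0.69, adjusted p = 0.0983). The difference from 4 hours to day 2, +0.49 (SE 0.25), had an adjusted p of 0.135, and 0.00695 with the replicate number as a block in the model. In rank among the tested genes Nr3c1 went from percentile 86.1 at day 0 to 62.5 at 4 hours and 71.6 at day 2.

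Fkbp5 (NM_010220), the immunophilin of the receptor complex, read 8.89 and 9.08 at day 0, 12.26 and 12.35 at 4 hours and 11.85 and 12.05 log2 tags/kb at day 2. Its rise at 4 hours was the largest of the 8 genes in shLuc cells, +3.31 (SE 0.17, 9.95-fold, adjusted p = 9.81e-07), and took it from percentile 88.6 to 99.3. It stayed high: day 2 was +2.96 above day 0 (SE 0.17, 7.77-fold, adjusted p = 7.90e-07). The 2 day 2 libraries lie below the 2 at 4 hours, by 0.36 on average (SE 0.17, adjusted p = 0.105; 0.00437 with the block).

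Tsc22d3 (NM_001077364), the anti-inflammatory leucine zipper gene, was transient in part. Its shLuc libraries read 7.84 and 7.93 at day 0, 10.78 and 11.00 at 4 hours, and 9.53 and 9.60 at day 2. The 3 times do not overlap. The rise at 4 hours was +3.00 (SE 0.16, 8.02-fold, adjusted p = 1.36e-06); it then fell by 1.32 (SE 0.16, adjusted p = 9.74e-05) and remained +1.68 above day 0 (SE 0.16, adjusted p = 1.53e-05).

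Zbtb16 (NM_001033324), the zinc finger factor, started lowest of the 8 and did not return. It read 4.89 and 4.77 at day 0, 7.41 and 7.36 at 4 hours, and 7.86 and 7.78 at day 2, so each time lies above the one before. The rise was +2.56 at 4 hours (SE 0.14, 5.88-fold, adjusted p = 1.24e-06) and +2.99 at day 2 against day 0 (SE 0.14, 7.95-fold, adjusted p = 2.88e-07). The further rise from 4 hours to day 2, +0.43 (SE 0.14, adjusted p = 0.0229), no longer passed when any 1 of the 4 libraries was left out. Its percentile went from 25.2 through 61.1 to 69.2.

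Sgk1 (NM_001161845), the kinase gene, had the smallest rise. The full palindrome printed above lies in only 1 of its 6 promoter windows, and that window was not matched to this transcript. The shLuc libraries read 8.36 and 8.30 at day 0, 9.61 and 8.93 at 4 hours and 7.17 and 7.17 at day 2. The 4 hour libraries are the highest and differ from each other by more than those of the other times, and the day 2 libraries are below both day 0 libraries. The differences were +0.94 at 4 hours (SE 0.18, 1.92-fold, adjusted p = 0.00249; +0.60 to +1.28 when 1 library was left out), then a fall by 2.10 from 4 hours to day 2 (SE 0.18, 4.29-fold lower, adjusted p = 1.03e-05), which left day 2 lower than day 0 by 1.16 (SE 0.18, adjusted p = 3.78e-04).

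The metallothionein genes Mt1 (NM_013602) and Mt2 (NM_008630) showed a pulse. Mt1 read 12.67 and 12.34 at day 0, 14.73 and 14.35 at 4 hours and 12.14 and 11.85 log2 tags/kb at day 2, and at 4 hours it was at percentile 100 of the tested genes. Mt2 read 10.99 and 10.85, then 13.85 and 13.80, then 10.87 and 10.74. For both genes the 4 hour libraries lie far above all others, and for Mt2 the day 0 and day 2 libraries overlap. The rises at 4 hours were +2.03 for Mt1 (SE 0.20, 4.09-fold, adjusted p = 4.21e-05) and +2.90 for Mt2 (SE 0.13, 7.49-fold, adjusted p = 4.97e-07). By day 2 Mt1 had fallen by 2.55 (SE 0.20, adjusted p = 5.65e-06) and Mt2 by 3.02 (SE 0.13, adjusted p = 2.29e-07). Against day 0, day 2 then stood at −0.51 for Mt1 (SE 0.20, adjusted p = 0.0509; 0.00246 with the block) and −0.11 for Mt2 (SE 0.13, adjusted p = 0.502). The transcripts of the pair are similar in sequence, and how shared reads were assigned is not given in the sources used here, so the split between them is uncertain.

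Pdk4 (NM_013743), the pyruvate dehydrogenase kinase gene, went the other way. It read 7.65 and 7.50 at day 0, 7.04 and 6.95 at 4 hours and 6.43 and 6.10 at day 2, each time below the one before. The fall was 0.58 at 4 hours (SE 0.18, adjusted p = 0.0243), a call that was lost when any 1 of the 4 libraries was left out (adjusted p 0.0569 to 0.123), and 1.31 at day 2 against day 0 (SE 0.18, 2.48-fold lower, adjusted p = 1.44e-04). The step from 4 hours to day 2 was a fall by 0.73 (SE 0.18, adjusted p = 0.00715; 0.0650 without replicate 2 of day 2).

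The order of levels changed with these moves. In shLuc cells at day 0 it ran, from high to low, Mt1, Mt2, Fkbp5, Nr3c1, Sgk1, Tsc22d3, Pdk4, Zbtb16, and among neighbours only the libraries of Fkbp5 and Nr3c1 overlapped. At 4 hours Tsc22d3 and Sgk1 stood above Nr3c1, which then overlapped with Zbtb16, and Pdk4 was lowest. At day 2 Mt1 overlapped with Fkbp5 and Nr3c1 overlapped with Zbtb16. Across the 12 libraries, which share the times and the hairpins, the levels of Mt1 and Mt2 had a Pearson correlation of 0.974, Fkbp5 and Zbtb16 of 0.954, Fkbp5 and Tsc22d3 of 0.953, and Sgk1 and Mt1 of 0.900. Fkbp5 and Sgk1 had 0.165 and Nr3c1 and Tsc22d3 −0.847.

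In shKdm5ABC cells 6 targets rose and the receptor fell in the first 4 hours; Pdk4 did not pass. The libraries read 8.59 and 9.15 at day 0 and 7.69 and 7.68 at 4 hours for Nr3c1, 9.36 and 9.79 then 12.58 and 12.72 for Fkbp5, and 8.10 and 8.32 then 11.01 and 11.48 for Tsc22d3. The 4 hour libraries are apart from day 0 in each case, below for the receptor and above for the targets. Of the 8 genes 7 passed between day 0 and 4 hours, where 46.1% of all transcripts did: Mt2 rose by +3.42 (SE 0.13, 10.7-fold), Fkbp5 by +3.07 (8.42-fold), Tsc22d3 by +3.04 (8.21-fold), Zbtb16 by +2.71 (6.53-fold), Mt1 by +2.16 (4.48-fold) and Sgk1 by +0.80 (1.74-fold), and Nr3c1 fell by 1.19. Pdk4 read 7.23 and 6.86 at day 0 and 7.46 and 7.36 at 4 hours, a difference of +0.36 (SE 0.18, adjusted p = 0.126; 0.0139 with the block), whereas in shLuc cells its libraries were lower at 4 hours.

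At day 2 of shKdm5ABC cells 5 of 8 differed from day 0 (45.2% of all transcripts), against day 0 of the same cells. Zbtb16 rose by +2.94, Tsc22d3 by +2.29, Fkbp5 by +2.28 and Mt2 by +0.47 (adjusted p = 0.0148), and Nr3c1 fell by 0.78 (adjusted p = 0.0256); 3 passed without replicate 2 of day 0 and 4 without any other library, with adjusted p up to 0.112 for Mt2 and 0.193 for Nr3c1. Sgk1 (−0.34, adjusted p = 0.157), Pdk4 (−0.27, adjusted p = 0.257) and Mt1 (−0.23, adjusted p = 0.382) did not pass. From 4 hours to day 2, 6 of 8 changed (41.2% of all transcripts). Mt2 fell by 2.95, Mt1 by 2.39, Sgk1 by 1.14, Fkbp5 by 0.79, Tsc22d3 by 0.74 and Pdk4 by 0.63 (adjusted p = 0.0176; 0.0504 to 0.135 without either 4 hour library or replicate 2 of day 2), while Nr3c1 (+0.41, adjusted p = 0.218; 0.0194 with the block) and Zbtb16 (+0.23, adjusted p = 0.204) did not pass.

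The direct comparison of the hairpins at each time asks whether lower KDM5 expression moves the receptor and its targets. At day 0 none of the 8 passed with limma, where 1.51% of all transcripts did. An unadjusted p under 0.05 was reached by 3 of the 8 and by 1725 of all 13534 transcripts. Fkbp5 libraries read 9.36 and 9.79 in shKdm5ABC and 8.89 and 9.08 in shLuc cells, without overlap; the difference was +0.59 (SE 0.17, adjusted p = 0.143; 0.00271 with the block). Pdk4 stood at −0.53 (SE 0.18, adjusted p = 0.225; 0.0133 with the block) and Zbtb16 at +0.40 (SE 0.14, adjusted p = 0.221; 0.0612 with the block). The receptor stood at +0.11 (SE 0.25, adjusted p = 0.943), with overlapping libraries.

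At 4 hours again 0 of 8 passed with limma (1.44% of all transcripts did). An unadjusted p under 0.05 was reached by 3 of the 8 and by 1807 of all 13534 transcripts. Mt2 libraries read 14.29 and 14.45 in shKdm5ABC and 13.85 and 13.80 in shLuc cells, without overlap; the difference was +0.54 (SE 0.13, adjusted p = 0.0901; 0.00889 with the block). Zbtb16 read 7.98 and 7.90 against 7.41 and 7.36, also without overlap, a difference of +0.55 (SE 0.14, adjusted p = 0.0892; 0.0164 with the block). With the block Fkbp5 (+0.34, adjusted p = 0.0335) and Pdk4 (+0.42, adjusted p = 0.0370) passed too, so that 4 of 8 did, where the block fit called 9.68% of all transcripts. Sgk1 (−0.28) and Mt1 (+0.22) had overlapping libraries.

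At day 2, 3 of the 8 were higher in shKdm5ABC cells, where 9.00% of all transcripts passed. Tsc22d3 read 10.61 and 10.40 in shKdm5ABC and 9.53 and 9.60 in shLuc cells, +0.94 (SE 0.16, 1.92-fold, adjusted p = 0.00960; 6.36e-04 with the block). Sgk1 read 7.91 and 7.78 against 7.17 and 7.17, +0.68 (SE 0.18, 1.60-fold, adjusted p = 0.0470; 0.00482 with the block). Mt2 read 11.30 and 11.53 against 10.87 and 10.74, +0.61 (SE 0.13, 1.53-fold, adjusted p = 0.0221; 0.00185 with the block). None of the 3 genes has overlapping libraries, but neither have Mt1, Pdk4 and Zbtb16, which did not pass. The share of all transcripts without overlap was not counted, so nothing is drawn from the lack of overlap. All 3 called genes fell past the test between 4 hours and day 2 in both kinds of cells, as did Mt1 and Pdk4. The calls rest on few libraries: 0 of the 3 passed without replicate 1 of shKdm5ABC or either replicate of shLuc, and 1, Tsc22d3, without replicate 2 of shKdm5ABC (adjusted p up to 0.0895 for Tsc22d3, 0.138 for Mt2 and 0.249 for Sgk1, with differences of +0.83 to +1.05, +0.50 to +0.72 and +0.61 to +0.74), and a fit on the 4 libraries alone called none. Sgk1 was also lost with each library centred on its median (adjusted p = 0.0513), with no filter on low values (0.0778) and without the mean-variance trend (0.0723). With the block, which called 28.1% of all transcripts, Mt1 (+0.37, adjusted p = 0.0355) and Pdk4 (+0.52, adjusted p = 0.00579) also passed, and Fkbp5 (−0.09) and Nr3c1 (+0.14) stood close to 0 with overlapping libraries. Summed adipocyte markers at day 2 were 20511 to 34228 tags/kb in shKdm5ABC and 37287 to 47080 in shLuc cells (0 of 10 passed), and fibroblast markers 18761 to 22691 and 14671 to 16658 (1 of 10 passed); their part in these 3 differences was not tested.

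**Figure D2:**
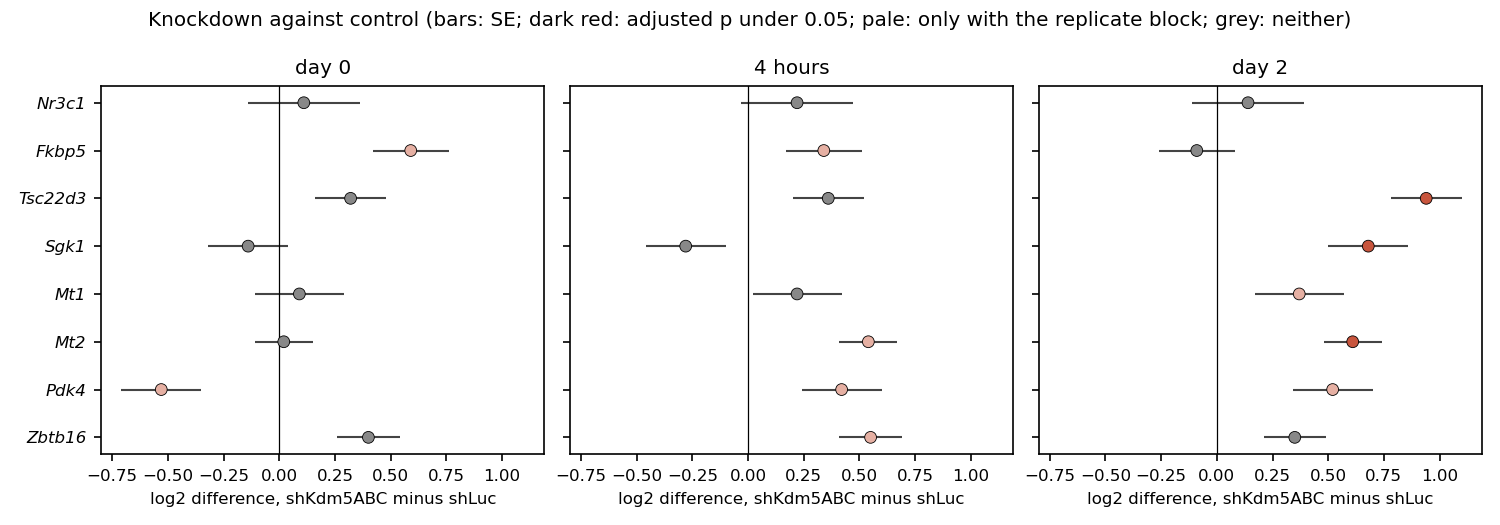
Difference of shKdm5ABC minus shLuc RNA (log2) for the 8 genes at day 0, 4 hours and day 2; points are fitted differences and horizontal lines their SE, coloured dark red where the adjusted p was under 0.05, pale where it was so only with the replicate block, and grey otherwise. Tsc22d3, Sgk1 and Mt2 at day 2 passed the test, at +0.94, +0.68 and +0.61.

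Whether the hairpin difference itself changed with time was tested as an interaction. Between day 0 and 4 hours 0 of 8 passed with limma, and 0% of all transcripts did (501 of 13534 had an unadjusted p under 0.05); the block fit called 0 of 8. Mt2 (+0.52, SE 0.19) and Pdk4 (+0.94, SE 0.25) had an unadjusted p under 0.05, with an adjusted p of 1.00. Between day 0 and day 2 again 0 of 8 passed, against 0.310% of all transcripts. An unadjusted p under 0.05 was reached by 5 of the 8 and by 1617 of all 13534 transcripts. With the block, which called 7.67% of all transcripts, 4 passed: Pdk4 (+1.04, SE 0.25, adjusted p = 0.111 without and 0.00415 with the block), Sgk1 (+0.82, 0.218 and 0.0300), Mt2 (+0.59, 0.221 and 0.0335) and Fkbp5 (−0.68, 0.266 and 0.0112). For Fkbp5, whose value has the other sign, the libraries of the 2 hairpins did not overlap at day 0 and overlapped at day 2.

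Other genes around the receptor were read from lists drawn up by known function, with earlier results of these data known. Over all tested transcripts 20.7% rose and 21.6% fell at 4 hours in shLuc cells, and between hairpins at day 2 5.66% were higher and 3.34% lower; the counts below are to be set beside these shares. Of 40 other glucocorticoid-induced genes, 37 were tested, and at 4 hours in shLuc cells 23 rose and 6 fell, with a median difference of +1.56 beside −0.02 over all transcripts. The phosphatase gene Dusp1 rose by +5.02 (adjusted p = 5.87e-08), Fam107a by +4.27 (3.96e-07), the EGFR inhibitor gene Errfi1 by +4.20 (9.10e-07) and Map3k6 by +3.07 (9.94e-07). Fam107a was also higher in shKdm5ABC cells, by +0.94, +1.59 and +1.63 at day 0, 4 hours and day 2 (adjusted p 0.0384, 0.00599 and 0.00167). Trim63, a muscle ubiquitin ligase gene, fell by 2.75 at 4 hours in shLuc cells and was +1.80 higher in shKdm5ABC cells then (adjusted p = 0.00899). Its 4 hour libraries read 1.16 and 0.92 log2 tags/kb in shLuc cells, near the filter value of 1, and 2.64 and 3.05 in shKdm5ABC cells. Between hairpins at 4 hours 195 transcripts passed, and 0 did in a fit on the compared groups alone. Across this list the hairpins differed in 1, 2 and 7 of 37 genes at the 3 times, beside 1.51%, 1.44% and 9.00% of all transcripts.

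Inflammatory genes that glucocorticoids are known to repress were split at 4 hours in shLuc cells: 4 of the 13 tested rose and 3 fell (median +0.04), shares close to those over all transcripts. Ptgs2, the inducible cyclooxygenase, rose by +3.30 (adjusted p = 7.21e-04) and the chemokine gene Cxcl1 by +2.45 (0.00119). Their shLuc libraries at 4 hours lay apart, at 8.55 and 6.83 log2 tags/kb for Ptgs2 and 9.18 and 8.10 for Cxcl1, so the size of these rises is uncertain. The chemokine gene Cxcl10 fell by 1.59 (0.00103). At day 2 none of the 13 was higher than at day 0 and 9 were lower (27.1% and 27.8% of all transcripts), with a median of −3.48. In shKdm5ABC cells 6 of 13 were higher than in shLuc cells at day 2 and none lower (5.66% and 3.34% of all transcripts; all calls in this comparison fell from 1218 to between 165 and 970 with 1 of the libraries left out), among them the protease gene Mmp9 (+1.92, adjusted p = 0.00683) and the adhesion gene Vcam1 (+1.32, 0.00562).

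Of 29 tested genes of receptor chaperones and FK506-binding immunophilins, 13 rose at 4 hours in shLuc cells and none fell (median +0.43). The list also holds FKBP genes from outside the receptor complex, so its count and median do not describe that complex alone. The HSP110 gene Hsph1 rose by +3.64, Hspa8 by +1.40, the cyclophilin gene Ppid by +1.32 and Dnajb1 by +0.76. Fkbp4, the immunophilin that exchanges with FKBP5, rose by +0.55 and was the 1 gene of the list that differed by hairpin at day 2 (−0.45, adjusted p = 0.0277). Of 20 coregulator genes 4 rose and 6 fell at 4 hours, near the shares over all transcripts, with Ppargc1a falling by 2.83 and Nrip1 rising by +1.28. Among 8 genes of steroid metabolism and related receptors none rose and 3 fell (median +0.16, of the other sign), including the mineralocorticoid receptor Nr3c2 by 2.68 and Akr1c14 by 3.14.

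The families of the single targets were counted at 4 hours in shLuc cells, where 42.3% of all transcripts passed. Among 19 relatives and partners of SGK1 and TSC22D3, 6 rose and 6 fell, Tsc22d1 rising by +1.14; the SGK1 substrate gene Ndrg1 rose by +1.71 and at day 2 was +1.78 higher in shKdm5ABC cells (adjusted p = 0.0204). Among 21 genes of a list of metallothionein, zinc and copper genes that also takes in heme and glutathione genes, 9 rose and 5 fell. The zinc importer gene Slc39a14 stood at +2.98. Outside the metal genes, the glutathione synthesis gene Gclc stood at +3.02 and the heme oxygenase gene Hmox1 at −2.27. Among 16 genes around pyruvate dehydrogenase 4 rose and 2 fell, with Pdk2 falling by 1.98, the pyruvate carrier gene Mpc2 rising by +1.04 and the phosphatase gene Pdp1 +1.31 higher in shKdm5ABC cells at day 2 (adjusted p = 0.00167). Among 11 BTB zinc finger genes and partners of ZBTB16 2 rose and 3 fell, Zbtb7b at +1.18 and Zbtb20 at −1.64. Of 20 cyclic AMP response genes, listed because IBMX raises cyclic AMP, 14 rose and none fell (median +1.79), with the phosphodiesterase genes Pde4d at +2.97 and Pde4b at +2.74.

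The genes whose levels over the 12 libraries were most like each member were named by Pearson correlation, as a description. They were Irs2 (0.993), Kti12 and Txndc11 (both 0.989) for Fkbp5, Sdc1 (0.988), Bzw1 and Aggf1 for Tsc22d3, Tm2d2 (0.991), Mocs1 and Fam107a for Zbtb16, and Ugdh (0.996), Srxn1 and Hip1r for Mt2. For Mt1 they were Avpi1 (0.984), Fgl2 and Zkscan6, for Sgk1 F730043M19Rik (0.985), Adamts14 and Ubtd2, and for Nr3c1 Stag1 (0.977), Mrtfb and Crebrf. Pdk4 had no gene above 0.928 (Tmem204), followed by Idnk and Rps6ka3.

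H3K4me3, a mark of active promoters, was deposited as scaled tags per peak in columns headed by hairpin, time and replicate. Before any result, the columns were set beside the RNA: for 9444 genes the promoter signal relative to its mean over the 6 groups was correlated with the RNA relative to its mean. In 2 of the 6 column pairs the RNA group of the same label had the highest correlation (Control_D0, 0.55, and KDM5_KD_D2, 0.34). The columns headed Control_4h were most like RNA of shKdm5ABC cells at day 0 (0.62, and −0.13 with their own label). Those headed Control_D2 were most like RNA of shLuc cells at 4 hours (0.49, own 0.03), those headed KDM5_KD_4h most like RNA of shLuc cells at day 2 (0.72, own −0.26), and those headed KDM5_KD_D0 stood at 0.29 with shKdm5ABC cells at 4 hours and 0.28 with their own label. Mean tags over all peaks were 613 to 636 in the columns headed Control_D0, Control_D2 and KDM5_KD_4h and 736 to 778 in those headed Control_4h, KDM5_KD_D0 and KDM5_KD_D2. Why headings and RNA differ was not tested. The values below are therefore given by column heading, and no direction over time or by hairpin is drawn from them.

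**Figure D3:**
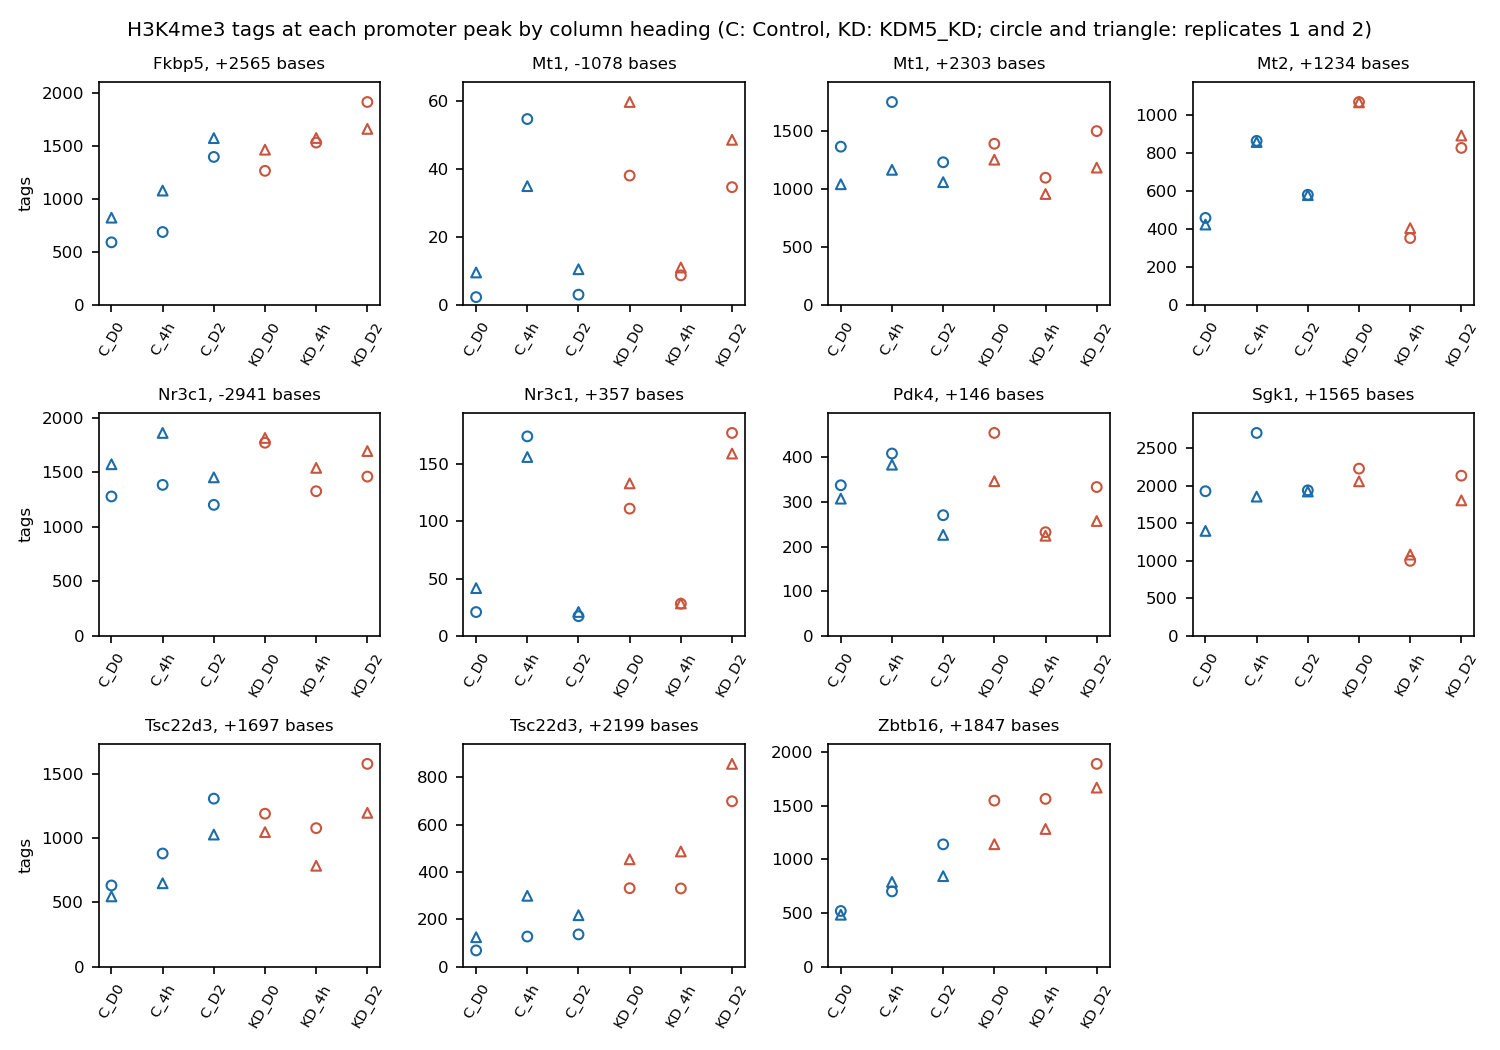
H3K4me3 tags (linear axis from 0, scaled by library) at the 11 peaks assigned to the 8 genes, by column heading; the circle and the triangle are replicates 1 and 2 of a heading. The Nr3c1 peak 357 bases from its start and the Mt1 peak 1078 bases upstream of its start are high in the columns headed Control_4h, KDM5_KD_D0 and KDM5_KD_D2.

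Nr3c1 has 2 H3K4me3 peaks. The broad one, centred 2941 bases upstream of the annotated start, carried 1201 to 1860 tags in all 12 libraries. It passed no comparison without the replicate block and 3 with it: KDM5_KD_4h minus KDM5_KD_D0 (−0.33, adjusted p = 0.00285), KDM5_KD_D0 minus Control_D0 (+0.34, 0.00231) and KDM5_KD_D2 minus Control_D2 (+0.25, 0.0173). The small one, centred 357 bases downstream, read 20.8 and 41.7 tags in the libraries headed Control_D0, 174 and 156 in Control_4h, 17.2 and 20.9 in Control_D2, 111 and 133 in KDM5_KD_D0, 28.1 and 28.3 in KDM5_KD_4h and 177 and 159 in KDM5_KD_D2. The libraries headed Control_4h, KDM5_KD_D0 and KDM5_KD_D2 lie at 111 tags or more and all others at 41.7 or less. It differed in 5 of the 7 comparisons of headings, most between KDM5_KD_D2 and Control_D2 (+3.08 on the log2(tags + 1) scale, SE 0.32, 8.44-fold, adjusted p = 3.80e-04).

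Mt1 and Mt2 lie next to each other on chromosome 8, and their peaks followed the same headings to different degrees. The small peak upstream of Mt1 (chr8:96701564-96702258, mm9) read 2.31 and 9.55 tags in Control_D0, 54.6 and 34.9 in Control_4h, 3.03 and 10.5 in Control_D2, 38.0 and 59.6 in KDM5_KD_D0, 8.71 and 11.0 in KDM5_KD_4h and 34.6 and 48.5 in KDM5_KD_D2. The main Mt1 peak (chr8:96702918-96707666) carried 954 to 1745 tags. It passed no comparison without the block and 4 with it: Control_4h minus Control_D0 (+0.26, adjusted p = 0.0221), KDM5_KD_4h minus KDM5_KD_D0 (−0.36, 0.00284), KDM5_KD_4h minus Control_4h (−0.48, 3.26e-04) and KDM5_KD_D2 minus Control_D2 (+0.22, 0.0498). The Mt2 peak (chr8:96695624-96699881) read 459 and 424, 865 and 859, 581 and 579, 1070 and 1068, 353 and 405, and 828 and 893 tags in the same order of headings, and its 2 libraries of a heading were close together. It was highest in KDM5_KD_D0 and lowest in KDM5_KD_4h, 2.82-fold apart (log2 difference −1.50, SE 0.10, adjusted p = 1.18e-05).

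The peaks of Fkbp5, Tsc22d3 and Zbtb16 were ordered otherwise over the headings, and not in the same way as each other. The Fkbp5 peak (chr17:28616949-28624110) had mean tags of 706, 882, 1483, 1362, 1550 and 1784 in the columns headed Control_D0, Control_4h, Control_D2, KDM5_KD_D0, KDM5_KD_4h and KDM5_KD_D2. The Zbtb16 peak (chr9:48638434-48645972) had 502, 746, 992, 1344, 1423 and 1779, and the Tsc22d3 peak at chrX:137130478-137135247 had 97.2, 214, 177, 393, 409 and 778. The other Tsc22d3 peak (chrX:137073107-137078947) ranged from 547 to 1576 tags. All 4 peaks were lowest in a library headed Control_D0 and highest in one headed KDM5_KD_D2. Sgk1 (chr10:21711011-21721063, 1001 to 2706 tags) was lowest in KDM5_KD_4h and highest in a library headed Control_4h, and Pdk4 (chr6:5445467-5446797, 224 to 454 tags) was lowest in KDM5_KD_4h and highest in one headed KDM5_KD_D0.

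Over the 11 peaks the counts past limma's test (adjusted p under 0.05), with the share over all 10702 peaks, were as follows. Control_4h minus Control_D0 gave 4 of 11, all positive (27.9% of all peaks), and Control_D2 minus Control_D0 gave 2, Fkbp5 and Zbtb16, both positive (1.97%). KDM5_KD_4h minus KDM5_KD_D0 gave 5, all negative (36.0%), and KDM5_KD_D2 minus KDM5_KD_D0 gave 0 (0.346%). In the latter 4 had an unadjusted p under 0.05, as did 1293 of all 10702 peaks, and edgeR on recovered reads called 0. KDM5_KD_D0 minus Control_D0 gave 7, all positive (32.9%), KDM5_KD_4h minus Control_4h gave 7, of which 2 were positive and 5 negative (35.9%), and KDM5_KD_D2 minus Control_D2 gave 5, all positive (24.0%). The median difference over all peaks was +0.28, −0.01, −0.23, −0.03, +0.29, −0.23 and +0.25 in the same order. Centring each library on its median took these medians to between −0.01 and +0.02 and left 2 of 11 past the test in KDM5_KD_D2 minus Control_D2, where the calls over all peaks went from 2571 to 832 (7.77%). Those of Control_4h minus Control_D0 went from 2981 to 525 (4.91%). Over all peaks the calls of KDM5_KD_4h minus KDM5_KD_D0 went from 120 higher and 3731 lower to 913 and 2532, those of KDM5_KD_4h minus Control_4h from 173 and 3666 to 990 and 2488, and those of KDM5_KD_D0 minus Control_D0 from 3499 and 21 to 1014 and 126. The replicate block raised the count to 9, 6, 8, 5, 10, 10 and 8 of 11, while it called 59.3%, 15.4%, 58.6%, 17.5%, 60.5%, 58.2% and 53.1% of all peaks. Leaving out replicate 1 headed Control_D0 took the count to 2 for Control_4h, 0 for Control_D2 and 4 for KDM5_KD_D0 minus Control_D0, and leaving out replicate 1 of KDM5_KD_D0 took that of KDM5_KD_4h minus KDM5_KD_D0 to 3. KDM5_KD_D2 minus Control_D2 gave 3 without replicate 1 of either heading. Control_D2 minus Control_D0 gave 0 without replicate 1 of Control_D2, and 1 without replicate 2 of either.

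KDM5A was found at all 8 genes. Of its 120 member peaks, 7 (5.83%) lay within 1 kb of the annotated start, where 13.2% of all 87525 peaks did, and 84 (70.0%) were above input in every library, where 61.0% of all were. Zbtb16 had 35 peaks, Nr3c1 and Tsc22d3 20 each, Fkbp5 17, Sgk1 10, Mt1 7, Pdk4 6 and Mt2 5. The replicate 2 library at day 0 was weaker than its partner over all peaks (a mean of 22.2 and 46.2 tags), which bears on every difference from day 0.

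**Figure D4:**
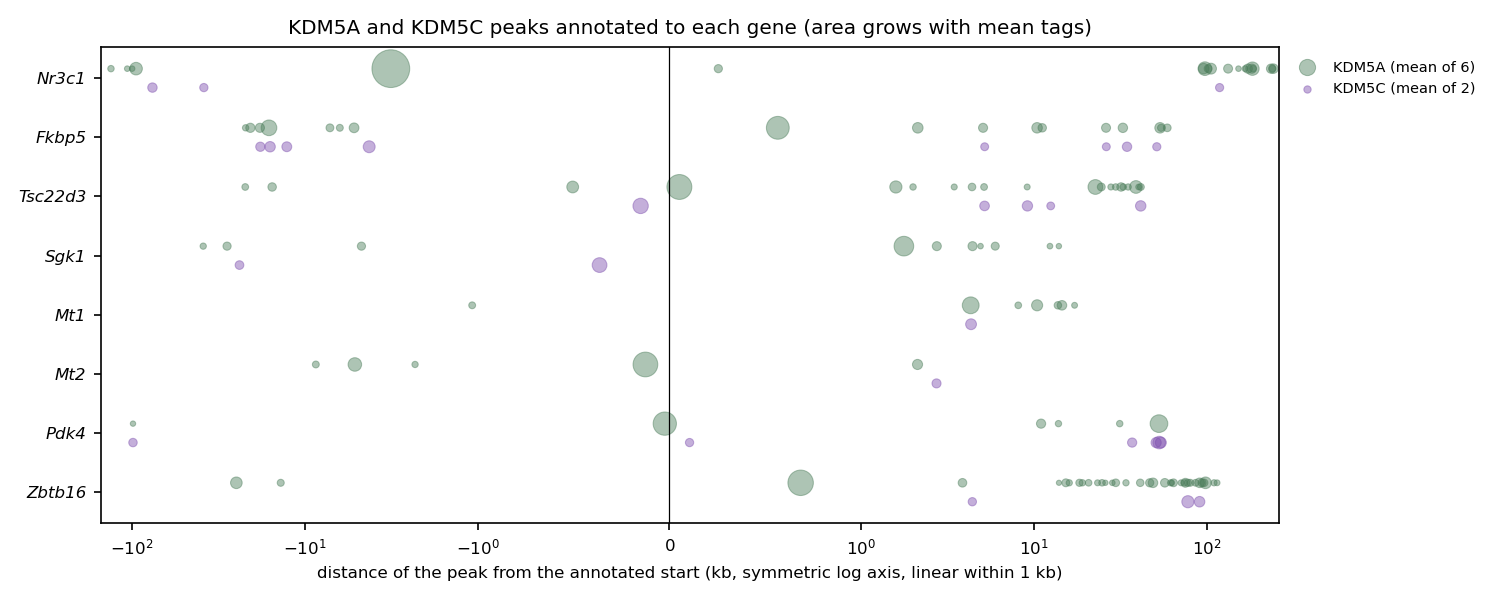
Distance of the KDM5A and KDM5C peaks from the annotated start of the gene they are assigned to (kb, symmetric log axis that is linear within 1 kb), for the 8 genes; each point is a peak and its area grows with its mean tags. KDM5A peaks spread from −133 to 243 kb, and 7 of the 120 lie within 1 kb.

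The strongest peak by mean tags lay near the start for most genes. At Nr3c1, centred 3177 bases upstream, it read 323 and 154 tags at day 0 (replicates 1 and 2), 303 and 134 at 4 hours and 409 and 305 at day 2, beside 24.3 in the input. At Tsc22d3 (chrX:137076548-137078797, 52 bases from the start) it read 169 and 72.2, 131 and 119, and 107 and 101, beside 7.20 in the input, and at Mt2 (chr8:96695410-96697377) 139 and 61.9, 162 and 77.5, and 150 and 99.0, beside 14.4. Input was below every KDM5A library at each of these peaks, and the 3 times overlap at Mt2. At Tsc22d3 both 4 hour libraries lie above both at day 2, and at Nr3c1 below them; day 0 overlaps with both times at these 2 genes. Fkbp5 (chr17:28621810-28623249) read 157 and 60.8, 99.7 and 49.1, and 125 and 93.5, beside 10.8, Pdk4 (chr6:5445650-5446954) 124 and 59.1, 107 and 127, and 111 and 82.0, beside 9.00. Sgk1 (chr10:21715665-21716810, 1765 bases downstream) had 93.6 and 72.7, 97.1 and 49.1, and 61.3 and 54.9, beside 7.20, and Mt1 (chr8:96706958-96707624, 4302 bases downstream) 66.3 and 29.5, 67.8 and 51.7, and 45.4 and 50.2, beside 3.60. The times overlap at Fkbp5 and Pdk4. The day 2 libraries lie below both day 0 libraries at Sgk1 and below both 4 hour libraries at Mt1, and overlap with the remaining time.

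At Zbtb16 the day 2 libraries stood apart. The peak 684 bases from the start (chr9:48641586-48645147) read 77.1 and 41.5 tags at day 0, 112 and 74.9 at 4 hours and 245 and 181 at day 2, beside 15.3 in the input. The day 2 libraries lie above all 4 others. Day 2 minus day 0 was +1.88 on the log2(tags + 1) scale (SE 0.59, 3.67-fold), with an adjusted p of 0.210.

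No KDM5A member peak passed limma's test in any comparison: 0 of 120 for 4 hours minus day 0 (0.0606% of all peaks passed, 10 member peaks had an unadjusted p under 0.05 and edgeR on recovered reads called 0), 0 for day 2 minus day 0 (0.173%; 17 unadjusted; edgeR 0) and 0 for day 2 minus 4 hours (0.607%; 5 unadjusted; edgeR 0). Of all 87525 KDM5A peaks, 4577, 5547 and 9592 had an unadjusted p under 0.05 in the same order. The median difference over all KDM5A peaks was +0.18, +0.37 and +0.19 in that order. It was −0.26, −0.17 and +0.09 with each library centred on its median over the tested peaks. With that centring the calls over all peaks went from 53 higher and 0 lower to 89 and 24 for 4 hours minus day 0, and from 119 and 32 to 189 and 1084 for day 2 minus day 0. At the peaks named with a difference here the SE was 0.57 to 0.74 on the log2 scale. The peak with the smallest adjusted p was at Fkbp5, 5187 bases upstream of the start (chr17:28628031-28628531), with 1.95 and 3.41 tags at day 0, 35.2 and 18.1 at 4 hours and 18.2 and 17.8 at day 2, beside 2.70 in the input. Its day 0 libraries do not overlap with the later ones; 4 hours minus day 0 was +2.86 (SE 0.74, adjusted p = 0.0790). Another Fkbp5 peak, 16132 bases upstream (chr17:28638758-28639695), read 33.2 and 17.0, 70.3 and 72.3, and 43.1 and 33.2 tags (+1.54 at 4 hours, SE 0.57, adjusted p = 0.502). A peak 10428 bases downstream of the Mt1 start (chr8:96713074-96713761) read 9.75 and 2.84, 24.3 and 36.2, and 27.2 and 27.1 (+2.25 at 4 hours, SE 0.66, adjusted p = 0.170).

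**Figure D5:**
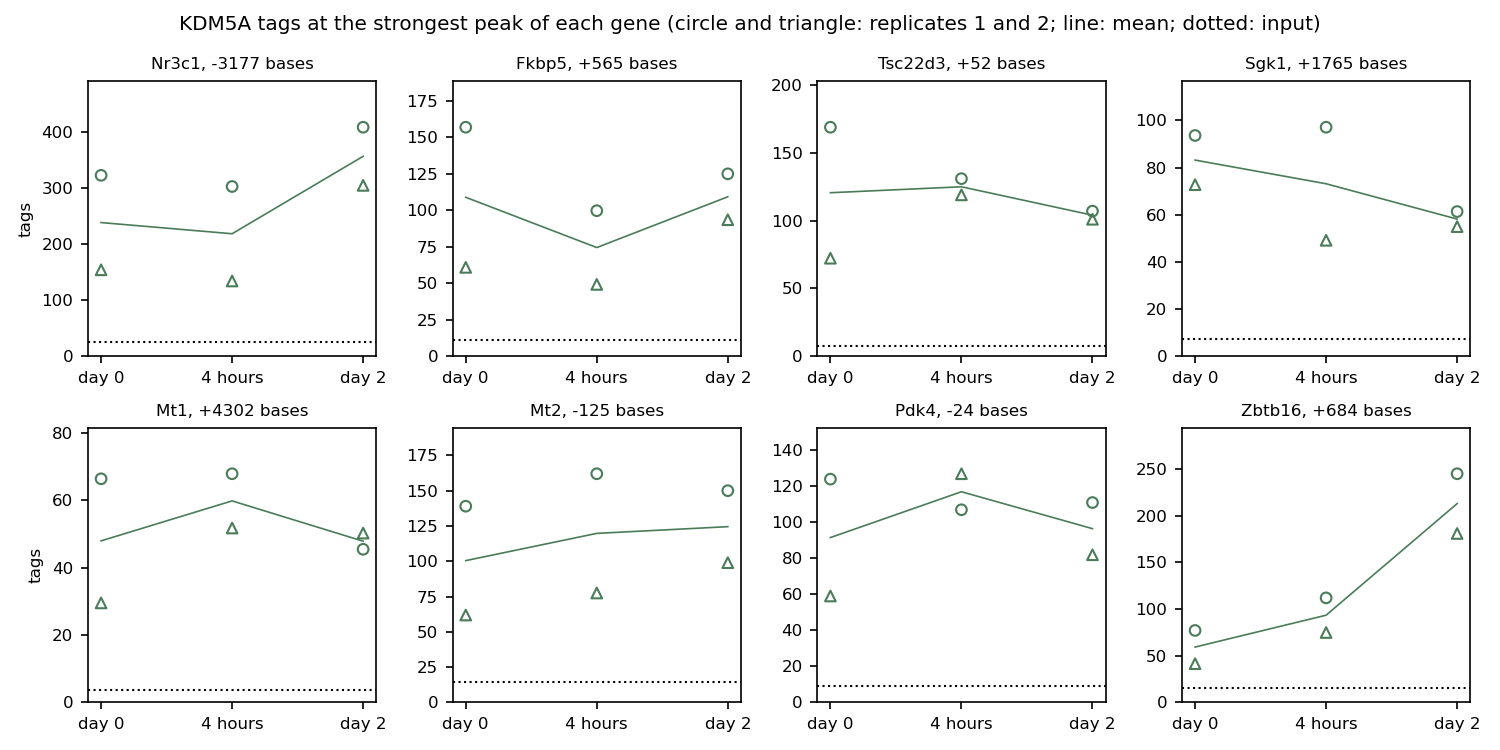
KDM5A tags (linear axis, scaled by library) at the strongest peak of each of the 8 genes at day 0, 4 hours and day 2; points are libraries, lines join group means and the dotted line is the input. At Zbtb16 both day 2 libraries (245 and 181) lie above the other 4.

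KDM5C, mapped at day 2 only, had 29 peaks at the 8 genes, 3 of them (10.3%, beside 14.6% of all KDM5C peaks) within 1 kb of a start, and all 29 were above input in both libraries, as were all 14827 peaks of the table. With a single time and group, nothing was tested. The strongest was at Tsc22d3 (chrX:137077061-137078688, 150 bases upstream), with 64.5 and 20.9 tags beside 4.50 in the input, followed by Sgk1 (chr10:21712952-21713712, 364 bases upstream), with 57.7 and 20.9 beside 4.50. Replicate 1 was the higher library over all peaks (a mean of 23.5 and 9.93 tags). Fkbp5 had the most peaks, 8, the strongest 4241 bases upstream (chr17:28626972-28627699, 37.3 and 12.3 tags beside 0.900), while Mt1 and Mt2 had 1 each. Nr3c1 had 3, of which the nearest lay 38.4 kb from its start. Of the 29 KDM5C peaks 16 (55.2%) shared at least 1 base with a KDM5A peak, which is 13.3% of the 120 KDM5A peaks; over all peaks the shares were 43.0% and 7.13%. All 11 H3K4me3 peaks overlapped a KDM5A peak, as did 96.4% of all H3K4me3 peaks, and 7 (63.6%) overlapped a KDM5C peak, as did 21.8% of all.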

How the data were processed

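RNA of 3T3-L1 cells was measured in 12 libraries, H3K4me3 in 12, KDM5A in 6 and KDM5C in 2, with 1 input library; 1 further input sample was not analysed here. The authors deposited RNA as log2 tags per kilobase of each RefSeq transcript, per the name of that table, and the chromatin tables as signal, the tags in each merged peak, per the file headers. Tags are fractional and 1 read is worth 0.568 to 3.39 tags by library, so they were scaled, to a total not given in the sources used here. The submitters' processing notes list Bowtie2 (0.12.8), Subread, DESeq2, STAR, HOMER and the build mm9; their roles, the RNA size factors and any pooling of replicates for peak calling are not given in the sources used here.

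Of 17515 RNA transcripts, 17253 were named from the RefSeq reference table and 144 from the peak tables, and 118 had no symbol. Transcripts with a log2 value of at least 1 in at least 2 libraries were tested (13534), and the transcript with the highest mean stood for a gene. Differences were fitted with limma 3.58.1 (R 4.3.3; group means over all libraries of an assay, mean-variance trend, Benjamini-Hochberg adjustment over all features, threshold 0.05), for chromatin on log2(tags + 1). Residual degrees of freedom were 6 for RNA, 6 for H3K4me3 and 3 for KDM5A, where the estimated prior was infinite, so that every KDM5A SE rests on the trend over all peaks. Whole reads were recovered from the tag steps in all 22 chromatin columns (100% of values up to 100 reads, within 0.1 of a read) and tested with edgeR 4.0.16 (quasi-likelihood), an alternative chosen after seeing the data. The scripts were tested on simulated data. Python 3.11.15, pandas 2.3.3, numpy 2.4.6 and matplotlib 3.10.9 were used for the rest.

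Replicates bear the experiment numbers 1 and 2 in the labels. Same-numbered libraries deviated together from their group means in RNA (correlations of 0.381 to 0.657 over 15 pairs of groups) and in H3K4me3 (0.504 to 0.790 over 15), so the numbers were taken to pair these samples, and a fit with the number as a block is given for changed calls in the RNA of the 8 genes, and for H3K4me3 as counts and at 2 peaks. The 8 genes and the lists were chosen with earlier results of these data known. Named genes are the 8, the 3 hairpin targets, up to 4 genes a list with the smallest p at 4 hours in shLuc cells, up to 2 with the smallest p between hairpins, and the 3 genes most alike each member. One gene that this rule names is not reported here. Peaks were assigned to genes as in the deposited tables, and peak positions are in mm9.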

Additional observations from a re-analysis of the deposited data

How the results depend on the processing

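The values here are numbers of the 8 genes, or of their peaks, past an adjusted p of 0.05. With the replicate block the RNA counts between hairpins were 2 at day 0, 4 at 4 hours and 5 at day 2, beside 0, 0 and 3 without it, and 4 beside 0 for the change of the hairpin difference from day 0 to day 2; the block called 9.44%, 9.68%, 28.1% and 7.67% of all transcripts there. The H3K4me3 counts with the block were 9, 6, 8, 5 and 8 beside 4, 2, 5, 0 and 5 (Control_4h and Control_D2 minus Control_D0, KDM5_KD_4h and KDM5_KD_D2 minus KDM5_KD_D0, and KDM5_KD_D2 minus Control_D2), where it called 59.3%, 15.4%, 58.6%, 17.5% and 53.1% of all peaks; the block changed no other count by over 1.5 times in RNA or H3K4me3. The KDM5A numbers did not pair the samples (correlations of 0.0470 to 0.333 over 3 pairs); with the replicate block 4, 3 and 1 of 120 peaks passed for 4 hours minus day 0, day 2 minus day 0 and day 2 minus 4 hours, among them the Zbtb16 peak near the start (day 2 minus day 0, adjusted p = 8.28e-04) and the Fkbp5 peak 5187 bases upstream (4 hours minus day 0, 0.00552).

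Only the libraries of the compared groups gave 0 RNA calls between hairpins at day 2. Centring each library on its median gave 2 for KDM5_KD_D2 minus Control_D2 and 1 KDM5A peak for day 2 minus 4 hours, and limma without the trend gave 1 for Control_D2 minus Control_D0. With 1 library left out, where the lone library of a group is assumed to vary like the others, the counts were 3 to 4 for RNA of shKdm5ABC cells at day 2 against day 0 and 0 to 1 between hairpins at day 2. For H3K4me3 they were 2 to 4, 0 to 1, 3 to 4, 4 to 7 and 3 to 4 (Control_4h and Control_D2 minus Control_D0, KDM5_KD_4h minus KDM5_KD_D0, KDM5_KD_D0 minus Control_D0, and KDM5_KD_D2 minus Control_D2). For KDM5A they were 0 to 1 (4 hours minus day 0), 0 to 2 (day 2 minus day 0) and 0 to 1 (day 2 minus 4 hours); the calls came without replicate 1 of day 0, replicate 1 of 4 hours or replicate 2 of day 2. The cause was not tested.

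Over single genes and peaks, no alternative reversed a called difference. Leaving out a library kept 384 of 416 RNA results, 271 of 308 H3K4me3 results and 1435 of 1440 KDM5A results on their side of the threshold, and the other alternatives 503 of 528, 426 of 462 and 1857 of 1866.

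Counts over all features moved as well. Between hairpins, 204 transcripts at day 0 became 1277 with the replicate block and 11 with only the compared groups, 195 at 4 hours became 1310 and 0, and 1218 at day 2 became 3809 and 25. For the change of that difference to day 2, 42 became 1038 with the block, 0 with no filter, 9 when fitted on the compared groups alone and 24 without the trend. For KDM5A, 53, 151 and 531 peaks became 13, 559 and 592 with edgeR, 118, 81 and 247 with a mean of at least 20 tags, 9, 263 and 740 with a pseudocount of 8, and 0 in each without the trend. With 2 libraries a group and no RNA counts, small differences are the least certain of these values, and intervals for the depth of RNA could not be given.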
